A study of Drosophila melanogaster with 12 samples.

Results

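Translation initiation and elongation factors were followed in direct RNA sequencing libraries of *Drosophila* heads, to ask how their transcripts compare between tau transgenic and control flies. The factors were taken as every isoform whose gene symbol in the deposited table starts with eIF or eEF, which gave 118 isoforms of 51 genes among 30738 isoforms of 13962 genes. Tau transgenic flies (*elav-Gal4/+;UAS-tauR406W/+*) express human tau carrying the disease-associated R406W change under the pan-neuronal *elav* driver, and control flies (*elav-Gal4/+*) carry the driver without a tau transgene. There were 3 libraries of each genotype, each made from polyA RNA of a pool of 500 heads of flies of both sexes at day 10 of adulthood. Because the driver is neuronal and whole heads were sequenced, transcripts of glia, photoreceptors, fat body and muscle were measured together with those of the neurons that express tau. The pools are taken here as replicates, and the p-values measure the spread between these libraries.

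Eukaryotic initiation factors (eIFs) bring the initiator tRNA, the small ribosomal subunit and the capped mRNA together and select the start codon. Elongation factors (eEFs) then deliver aminoacyl-tRNAs to the ribosome and move it along the message. Because initiation through eIF2 and through the cap-binding protein eIF4E is regulated by stress and growth signals, these factors are widely studied in neurodegeneration.

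Values are TPM, the reads assigned to an isoform scaled to a library total of 1000000. A nanopore read derives from a single RNA molecule, so these TPM values are shares of reads and are not divided by transcript length. As inferred from the TPM values, between 684408 and 1329914 reads were assigned in tau libraries, and between 573001 and 910700 in control libraries. Counts of 3 reads corresponded to 2.26 to 4.38 TPM in tau libraries and 3.29 to 5.24 TPM in control libraries. Values at or under this level cannot be told from 0. Of the 118 isoforms, 82 had a mean of at least 5 TPM and were tested, and 44 of the 51 genes passed the same limit on their summed isoforms. The 7 genes under it were *eIF3d2*, *eIF3f2*, *eIF3g2*, *eIF4E6*, *eIF4E7*, *eIF2Bbeta* and *eEFSec*. *eIF4E6* was listed at 0 in all 6 libraries, and 17 isoforms did not reach 3 reads in any library.

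The factors together took 2.10%, 2.29% and 2.21% of assigned reads in tau heads, against 2.27%, 2.23% and 2.26% in control heads. The ranges of the genotypes overlapped. No factor passed the test for a difference in abundance between tau and control. With limma and Benjamini-Hochberg adjustment over all genes, 0 of 44 factor genes had an adjusted p of 0.05 or less, where 1.08% of all 8960 tested genes did. Among isoforms, 0 of 82 passed, where 0.758% of all 12800 tested isoforms did. An unadjusted p under 0.05 was found for 1 of 44 genes (8.15% of all genes) and for 4 of 82 isoforms (8.21% of all isoforms). The lowest adjusted p was 0.50 among genes and 0.478 among isoforms.

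Genotypes did not overlap for 4 of 44 genes, against 13.0% of all genes, and for 8 of 82 isoforms, against 13.4% of all isoforms. All tau libraries lay above all control libraries for 2 genes (6.09% of all genes) and 4 isoforms (6.5% of all isoforms), and below them for 2 genes (6.93%) and 4 isoforms (6.89%). These counts are small and near the background. The median log2 fold change of tau over control was -0.03 for the 44 genes and -0.04 for all genes. It was lower than 0 for 25 of the 44 factor genes (56.8%), and for 54.7% of all genes. Of isoforms, 44 of 82 were lower, against 53.8% of all isoforms.

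The factors were measured more precisely than most transcripts, with a median standard error of 0.17 on the log2 scale for factor genes and 0.31 for all genes. For 20 of 44 genes the 95% interval of the log2 fold change lay within 0.5 of 0, and for 35 it lay within 1. For the other 9 genes, *eEF1delta* and *eIF2D* among them, the interval reached beyond 1, so a difference of that size is not excluded.

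**Figure D1:**
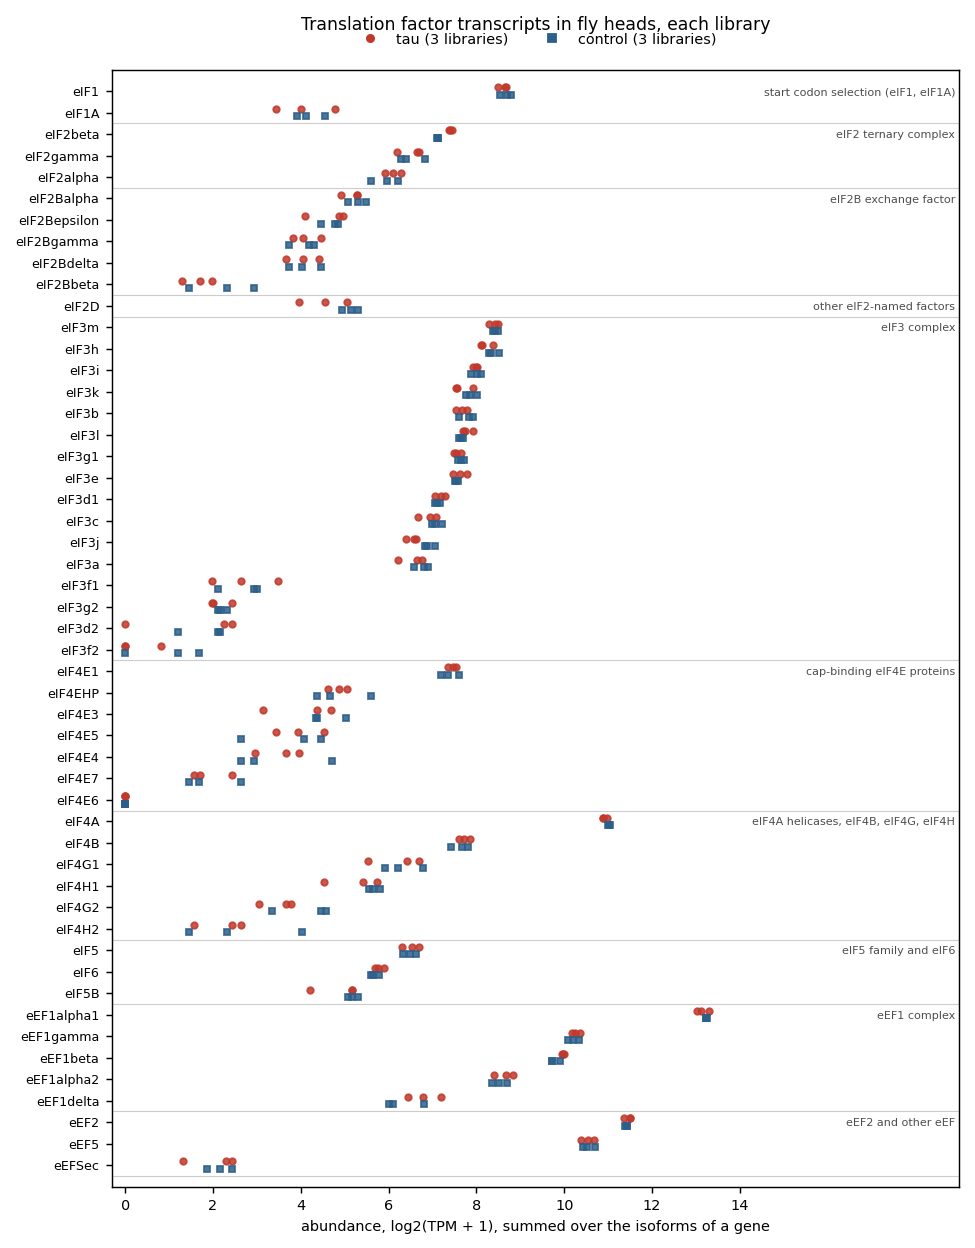
Abundance of each of the 51 factor genes in each library, as log2(TPM + 1) of the summed isoforms, with tau libraries (red circles) drawn above control libraries (blue squares) and genes grouped by role. The points of tau and control libraries lie over each other for most genes, and the elongation factors eEF1alpha1, eEF2 and eEF5 with the helicase eIF4A take the largest shares of reads.

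The elongation factors took most of the reads. Summed over 8 genes, they had 15138, 17077 and 16117 TPM in tau heads, against 16299, 16269.9 and 16544 TPM in control heads. The 43 initiation factor genes had 5877, 5814 and 6010.5 TPM in tau heads, against 6433, 6036 and 6095 TPM in control heads. All tau sums lay below all control sums in the deposited TPM, and the ranges overlapped after median-of-ratios scaling, a rescaling chosen for group sums after seeing the data.

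*eEF1alpha1* encodes the factor that delivers aminoacyl-tRNA to the ribosome and had the highest TPM of all factors. Its summed isoforms had 8276, 10043 and 8889 TPM in tau heads, against 9615, 9586 and 9679 TPM in control heads. Control libraries were close to each other and tau libraries spread, at 9069 ± 897 TPM in tau heads and 9626 ± 47.6 TPM in control heads (SD, n = 3 each), with tau replicate 2 above and the other tau libraries below every control. Its log2 fold change was -0.09, with a 95% interval from -0.26 to 0.08 (limma, adjusted p = 0.878).

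*eEF1alpha2*, its paralogue, averaged 399.7 ± 56.9 TPM in tau heads and 369 ± 44.3 TPM in control heads (SD, n = 3 each). Reads that fit both paralogues could be divided between them by the quantification, so the level of each is uncertain to that extent. For *eEF1alpha2* the log2 fold change was 0.11, with an interval from -0.19 to 0.42.

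Subunits eEF1beta, eEF1gamma and eEF1delta form the exchange factor that reloads eEF1alpha with GTP. *eEF1beta* had 991, 1002 and 1019 TPM in tau heads, against 954, 845 and 841 TPM in control heads. All tau libraries lay above all control libraries, and they still did when libraries were rescaled by the median of ratios. *eEF1beta* differed by 0.19 on the log2 scale (interval from -0.02 to 0.41) and did not pass the test (limma, adjusted p = 0.70).

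*eEF1delta* had 109.6, 85.7 and 145 TPM in tau heads, against 63.7, 111 and 68.1 TPM in control heads, with control replicate 2 inside the tau range. Its log2 fold change was 0.50, the highest among the factors, with an interval from -0.03 to 1.02 (limma, adjusted p = 0.648). It was 0.74 without control replicate 2 and 0.30 without tau replicate 3. *eEF1gamma* had 1149, 1313 and 1207 TPM in tau heads, against 1082, 1285 and 1179.8 TPM in control heads, and these ranges overlapped (log2 fold change 0.05).

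*eEF2*, the GTPase that moves the ribosome by a codon, had 2639.6, 2889.7 and 2907 TPM in tau heads, against 2751, 2661 and 2775 TPM in control heads. Its log2 fold change was 0.04, with a narrow interval from -0.13 to 0.22. *eEF5*, the factor that carries the amino acid hypusine and relieves ribosomes stalled at proline runs, had 1631, 1334 and 1493 TPM in tau heads, against 1465, 1365 and 1672 TPM in control heads. Here the log2 fold change was -0.01 (interval from -0.25 to 0.22), and its sign turned positive, at 0.02, with median-of-ratios scaling.

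**Figure D2:**
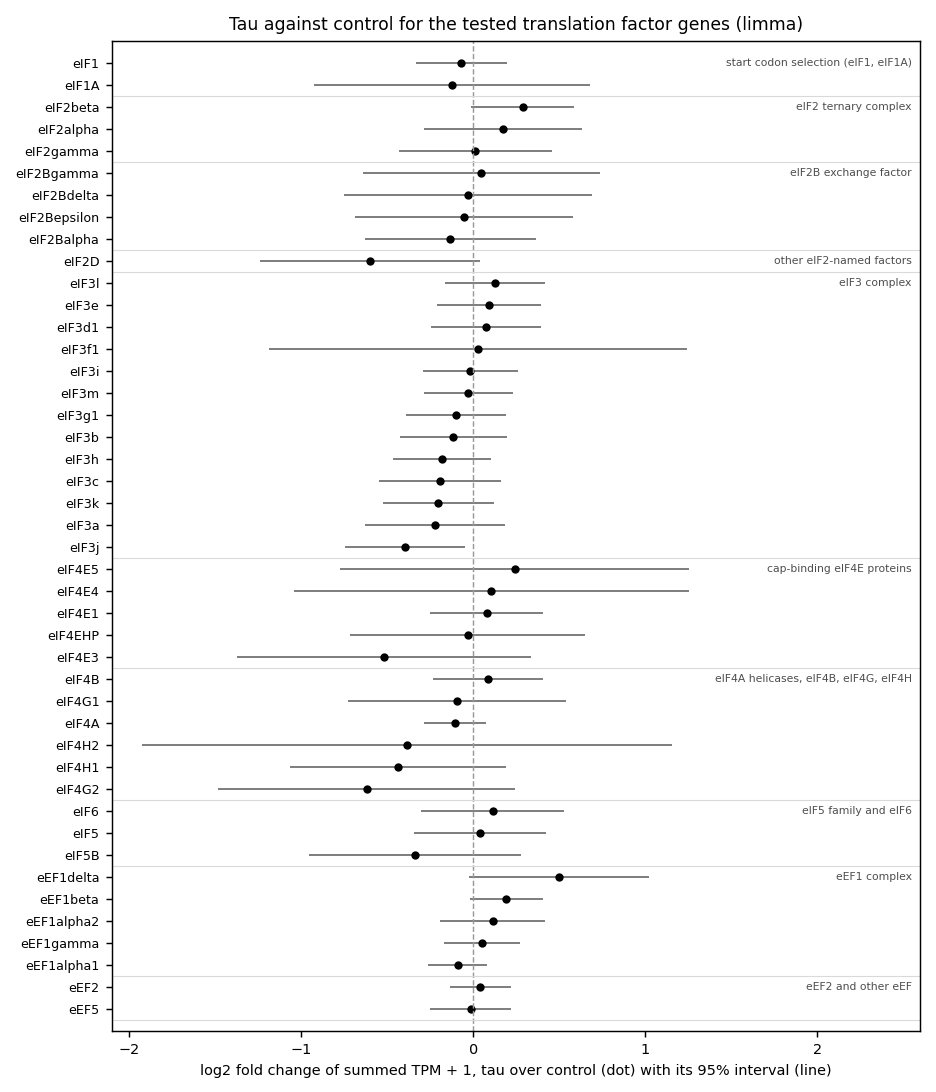
Log2 fold change of summed TPM, tau over control, for the 44 tested factor genes (dots) with 95% intervals from limma (lines), grouped by role and ordered by fold change within a role. Intervals are short for abundant genes such as eEF2 (from -0.13 to 0.22) and long for genes with few reads such as eIF4H2 (from -1.93 to 1.15), and that of eIF3j lies wholly below 0 before adjustment.

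Among initiation factors, eIF1 and eIF1A keep the scanning ribosome from starting at the wrong codon. *eIF1* had 408, 356 and 402 TPM in tau heads, against 443, 369.9 and 412 TPM in control heads. *eIF1A* had only 26.3, 15 and 9.76 TPM in tau heads, against 16.5, 22.4 and 14.0 TPM in control heads. For both genes the genotypes overlapped, and the log2 fold changes were -0.07 and -0.13.

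The eIF2 trimer binds the initiator tRNA and is the target of the stress kinases that phosphorylate its alpha subunit. *eIF2beta*, on chromosome 3L at positions 12525093 to 12526731, had 167, 174 and 166 TPM in tau heads, against 138, 139.5 and 136 TPM in control heads. The groups were tight and separate, with 169 ± 4.32 TPM in tau heads and 138 ± 1.73 TPM in control heads (SD, n = 3 each), and they did not overlap after median-of-ratios scaling either. *eIF2beta* had a log2 fold change of 0.29 ± 0.14 (SE), with an interval from -0.01 to 0.59, and it did not pass the adjustment over all genes (limma, adjusted p = 0.64). An exact permutation test over 3 against 3 libraries (two-sided) cannot give a p below 0.1, which is what *eIF2beta* had.

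The other subunits of eIF2 overlapped between genotypes. *eIF2alpha* had 67.2, 59.4 and 77.1 TPM in tau heads, against 73.6, 47.4 and 61.1 TPM in control heads. *eIF2gamma* had 99.4, 103 and 72.2 TPM in tau heads, against 113, 82.9 and 76.8 TPM in control heads. Their log2 fold changes were 0.17 and 0.01. Summed over its 3 genes, eIF2 had 333, 336 and 315 TPM in tau heads, against 325, 269.8 and 274 TPM in control heads, which overlapped in the deposited TPM and separated, with tau above, after median-of-ratios scaling.

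The exchange factor eIF2B, which returns eIF2 to its GTP-bound form, was read at low levels. Its tested subunits *eIF2Balpha*, *eIF2Bgamma*, *eIF2Bdelta* and *eIF2Bepsilon* had log2 fold changes from -0.13 to 0.05, and all had overlapping genotypes. *eIF2D*, which can bring initiator tRNA to the ribosome without eIF2, had 14.6, 22.6 and 32.2 TPM in tau heads, against 38.4, 34.2 and 29.7 TPM in control heads. Tau replicate 3 lay between the control libraries. For *eIF2D* the log2 fold change was -0.60 (interval from -1.24 to 0.04, limma, adjusted p = 0.656), and without tau replicate 1 it was -0.32.

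The eIF3 complex is the scaffold that holds the small subunit, the mRNA and the other factors together. Summed over 16 genes, it had 2425, 2275 and 2366 TPM in tau heads, against 2527, 2435 and 2499 TPM in control heads. All tau sums lay below all control sums in the deposited TPM, but the ranges overlapped after median-of-ratios scaling, where the log2 ratio of the means was -0.04 in place of -0.08. Of 13 tested subunits, 9 had a log2 fold change below 0, where 54.7% of all genes did. Of these 13, 0 passed the test, where 1.08% of all genes did. Their median was -0.10, against -0.04 for all genes.

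*eIF3j*, a loosely bound subunit that aids ribosome recycling and start codon selection, was the only factor gene with an unadjusted p under 0.05. It had 83.3, 94.0 and 97.6 TPM in tau heads, against 133, 113 and 117 TPM in control heads. All tau libraries lay below all control libraries, also after scaling. The log2 fold change of *eIF3j* was -0.40 ± 0.16 (SE), with an interval from -0.75 to -0.05 (limma, unadjusted p = 0.029 and adjusted p = 0.50).

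The core subunits *eIF3a*, *eIF3b* and *eIF3c* had log2 fold changes of -0.22, -0.12 and -0.19 with overlapping genotypes. *eIF3h* had 332, 277 and 274 TPM in tau heads, against 313, 322 and 363 TPM in control heads. *eIF3k* had 241, 183 and 187 TPM in tau heads, against 256, 215 and 230.4 TPM in control heads. For both, tau replicate 1 lay among the control libraries and the remaining tau libraries lay below them. *eIF3m* and *eIF3i* differed by -0.03 and -0.02 on the log2 scale, and both signs turned positive with median-of-ratios scaling. *eIF3l* had 212, 205 and 241 TPM in tau heads, against 208, 193 and 201 TPM in control heads (log2 fold change 0.13). The paralogues *eIF3d2*, *eIF3f2* and *eIF3g2* were at or under the level of 3 reads in every library except tau replicate 2, where *eIF3d2* and *eIF3g2* were above it, and *eIF3f1* averaged 6.14 TPM in tau heads and 5.62 TPM in control heads.

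The cap-binding protein eIF4E recruits mRNA, and flies have several genes for it. *eIF4E1* had the most reads among them, with 162, 186 and 177 TPM in tau heads, against 163, 192 and 145 TPM in control heads (log2 fold change 0.08, interval from -0.25 to 0.41). *eIF4EHP*, a cap-binding protein that represses translation, averaged 28.0 ± 4.48 TPM in tau heads and 30.5 ± 14.7 TPM in control heads (SD, n = 3 each). The paralogue *eIF4E3* had 24.8, 19.6 and 7.81 TPM in tau heads, against 31.8, 19.7 and 19.2 TPM in control heads, and its log2 fold change was -0.52 (limma, adjusted p = 0.846), or -0.06 without tau replicate 3. *eIF4E4* and *eIF4E5* averaged between 11 and 15.3 TPM in both genotypes with a wide spread. For *eIF4E5* the log2 fold change of 0.24 ranged from -0.30 to 0.61 when a library was left out, and was -0.30 without control replicate 2.

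eIF4A, the RNA helicase that unwinds 5′ UTRs, works with the scaffold eIF4G and the helpers eIF4B and eIF4H. *eIF4A* had 1898, 1889.6 and 1999 TPM in tau heads, against 2102, 2044 and 2075 TPM in control heads. All tau libraries lay below all control libraries in the deposited values, but not after median-of-ratios scaling, which placed tau replicates 1 and 3 inside the control range. *eIF4A* had a log2 fold change of -0.10, with a narrow interval from -0.28 to 0.07 (limma, adjusted p = 0.857). Summed with eIF4B, the eIF4G and the eIF4H genes, the group had 2187, 2256 and 2367 TPM in tau heads, against 2506, 2401 and 2379 TPM in control heads, and these too overlapped after scaling.

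*eIF4B* averaged 211 ± 18.0 TPM in tau heads and 199.7 ± 26.7 TPM in control heads (SD, n = 3 each). *eIF4G1* had 45.3, 102 and 83.9 TPM in tau heads, against 109, 73.7 and 59.3 TPM in control heads, so that the ranges overlapped fully. *eIF4G2* had 7.31, 12.8 and 11.7 TPM in tau heads, against 20.9, 9.21 and 22.7 TPM in control heads, from 5 to 17 reads a tau library and 7 to 19 reads a control library. Its log2 fold change was -0.62, the lowest among the factors, with an interval from -1.48 to 0.24 (limma, adjusted p = 0.794), and it was -1.01 without control replicate 2 and -0.40 without tau replicate 1 or control replicate 3. *eIF4H1* had 21.9, 52.6 and 42.0 TPM in tau heads, against 54.9, 46.1 and 48.9 TPM in control heads. For *eIF4H1* the log2 fold change was -0.44, and -0.08 without tau replicate 1. *eIF4H2* had 4.38, 5.26 and 1.95 TPM in tau heads, against 15.4, 3.95 and 1.75 TPM in control heads, from 1 to 14 reads a library, and only control replicate 1 stood above the others. Its log2 fold change was -0.39, or -0.06 without tau replicate 3, -0.60 without tau replicate 2 and -0.96 without control replicate 3. Without control replicate 1 its mean lies under 5 TPM, so it was not fitted and its direction without that library is not known.

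*eIF5*, which triggers GTP hydrolysis by eIF2, averaged 90.6 ± 11.7 TPM in tau heads and 88.0 ± 8.87 TPM in control heads, and *eIF6*, which keeps the large ribosomal subunit apart until it is needed, averaged 54.2 ± 3.91 TPM in tau heads and 50.0 ± 3.36 TPM in control heads (SD, n = 3 each). *eIF5B*, the GTPase that joins the subunits, had 17.5, 34.6 and 35.1 TPM in tau heads, against 35.1, 32.9 and 38.4 TPM in control heads. Its log2 fold change was -0.34 with all libraries and -0.02 without tau replicate 1.

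**Figure D3:**
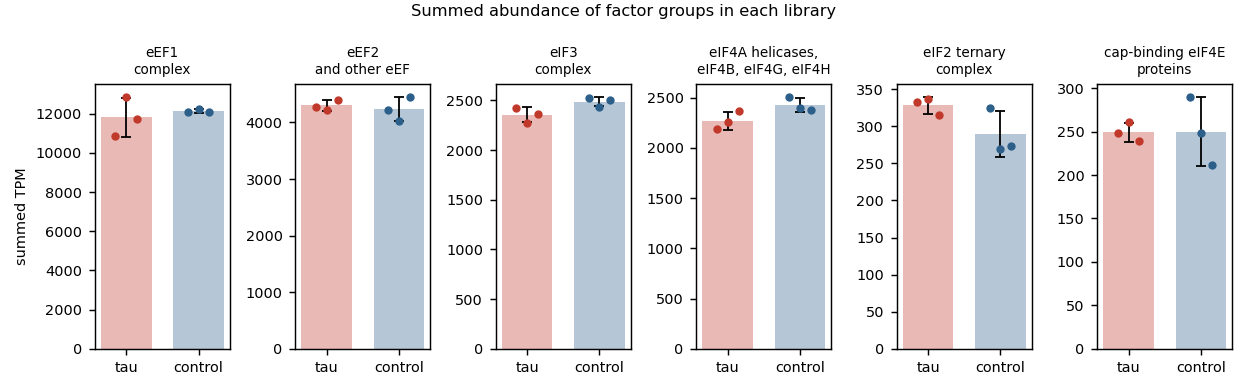
Summed TPM of 6 groups of factors in each library (points), with the mean (bar, from 0) and SD (error bar) of 3 tau and 3 control libraries. The eIF3 complex (2275 to 2425 TPM in tau, 2435 to 2527 TPM in control) and the eIF4A group separate by a small margin in the deposited TPM, which is lost when libraries are rescaled, and the other groups overlap in the deposited TPM.

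Tau replicate 1 stood apart from the other libraries in its long transcripts. The deviation of log2(TPM + 1) of each factor gene from its mean over 6 libraries was compared with the length of the most abundant isoform. Of 15 factor genes with a main isoform of 2000 nt or more, 14 lay below their own mean in tau replicate 1, and 12 had their lowest value of all libraries there. Among the 29 shorter genes, 2 had their lowest value in tau replicate 1. The median deviation of the 15 long genes was -0.32 in tau replicate 1, 0.11 and 0.07 in the other tau libraries, and 0.10, -0.03 and 0.05 in control libraries.

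Across the 44 factor genes, Spearman's rho of length with deviation was -0.75 in tau replicate 1 (Pearson's r -0.67), 0.51 and 0.17 in the other tau libraries, and 0.07 to 0.15 in control libraries. Genes are not independent replicates and all share the depth of their library, so no p is given. The same was seen over 8957 tested genes with an annotated length, where rho was -0.43 in tau replicate 1. By the study's methods, the total RNA of all samples was of high integrity, measured before polyA selection, so later steps are not covered. The study also lists a shorter read length for tau replicate 1 than for the other tau libraries, and the shortest for control replicate 1. The cause of the length pattern was not tested.

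Of the genes that deviated most downward in this library, *eIF2D* (-0.86) has a main isoform of 1841 nt and the others are longer. *eIF4G2*, with a main isoform of 8889 nt, deviated by -0.76 on the log2 scale, *eIF4G1*, at 5576 nt, by -0.73, *eIF5B*, at 4378 nt, by -0.80, and *eIF4H1*, at 3898 nt, by -0.93. Without tau replicate 1, the log2 fold change of *eIF4G1* was 0.24 in place of -0.09, that of *eIF3a*, at 3773 nt, was -0.06 in place of -0.22, and 0 of 44 factor genes were called. The median log2 fold change of the 15 long genes was -0.09 with tau replicate 1 and 0.07 without it. *eIF2beta* and *eEF1beta*, which are short, had log2 fold changes of 0.30 and 0.20 without this library, and *eIF3j* had -0.33.

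**Figure D4:**
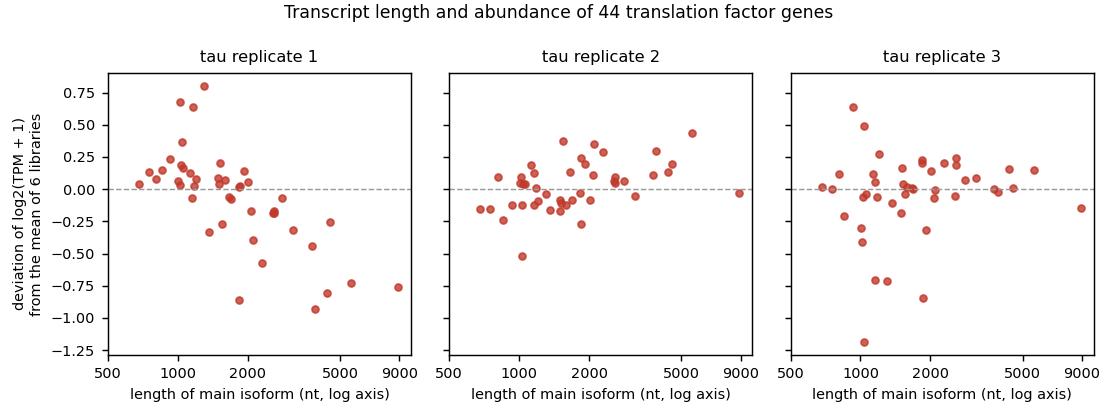
Deviation of log2(TPM + 1) from the mean of 6 libraries against the length of the main isoform (log axis) for 44 factor genes in each tau library. Long genes lie below 0 in tau replicate 1 (median -0.32 for 15 genes of 2000 nt or more), and not in tau replicates 2 and 3 (0.11 and 0.07).

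Among the factor genes, 29 had 2 or more listed isoforms. Isoforms were next compared within a gene, as the isoform's share of the gene's TPM, and 60 isoforms passed the limit for this test. How far isoforms were told apart differed with their structure. Of 38 pairs of tested isoforms of a factor gene that end at the same annotated 3′ position, 16 had values within 5% of each other in all 6 libraries, and 11 of these had exactly the same values. The 38 pairs came from 16 genes and the close pairs from 7 of these. Of 27 pairs with different 3′ ends, from 10 genes, 0 were this close. Pairs of the same gene are not independent. As background, nanopore direct RNA reads begin at the polyA tail, and many do not reach the 5′ end.

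The main elongation factors belong to this group. *eEF1alpha1* (chromosome 2R, positions 11891135 to 11895762) has isoforms RA, RD and RE that share their coding sequence and 3′ UTR of 554 nt and differ in the 5′ exon. Each of the 3 took between 33.0% and 33.3% of the gene's TPM in every library. RC, with a 3′ UTR of 796 nt, was told apart from them, and took 0.406%, 0.659% and 0.472% in tau heads, against 0.582%, 0.549% and 0.649% in control heads. *eEF1alpha2* has 4 isoforms with different 5′ UTRs and each had exactly 25.0% of the gene's TPM in all libraries. For *eEF2* (chromosome 2L), RA and RC differ in the 5′ UTR and had identical values, while RD, with a longer 3′ UTR of 398 nt, had 87.7, 73.7 and 70.3 TPM in tau heads, against 69.2, 77.7 and 89.0 TPM in control heads. For these genes the gene sum is the measured quantity, and the values of 5′ isoforms are a division of it.

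No shift in isoform share passed the test, which recovered 31 of 200 simulated shifts of 1 on the log2 scale. With limma on the log2 ratio of an isoform to the rest of its gene, 0 of 60 tested factor isoforms had an adjusted p of 0.05 or less, as did 0.0% of all 7567 tested isoforms. An unadjusted p under 0.05 was found for 7 of 60 (6.58% of all). Genotypes did not overlap in 8 of 60, against 9.77% of all, with 4 above (4.93% of all) and 4 below (4.84% of all) in tau. Where a gene has a single pair of isoforms their shares mirror each other, so these counts are not of independent shifts.

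Of these, *eIF3b*-RB took 28.8%, 28.8% and 28.4% of the gene's TPM in tau heads, against 17.5%, 18.7% and 23.7% in control heads, from 127 to 292 reads of *eIF3b* a tau library and 110 to 220.0 reads a control library. All tau libraries lay above all control libraries, and the log2 ratio to the rest of the gene differed by 0.69, with an interval from 0.28 to 1.1 (limma, adjusted p = 0.478). In TPM, *eIF3b*-RB had 53.5, 63.3 and 57.7 in tau heads, against 42.3, 42.6 and 45.5 in control heads, and *eIF3b*-RA had 132, 156 and 145 in tau heads, against 199, 185 and 146 in control heads.

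Both isoforms of *eIF3b* encode the same protein from positions 17536465 to 17538779 of chromosome 2R (plus strand). *eIF3b*-RB starts upstream with an exon from 17536213 to 17536329 that is spliced to 17536455, while *eIF3b*-RA starts at 17536333 and reads through to the start codon. RA also ends further downstream, at 17539142 with a 3′ UTR of 360 nt, against 17539063 and 281 nt in RB. When a library was left out, the difference ranged from 0.58 to 0.85.

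*eIF4A* has 6 isoforms on chromosome 2L between positions 5981764 and 5985909. All 6 encode a protein from a coding sequence of 1209 nt, and they differ in their 5′ starts, in a splice within the 3′ UTR and in their 3′ ends. *eIF4A*-RF, which removes the intron between 5985220 and 5985343 and has a 3′ UTR of 501 nt, had 202, 213 and 213 TPM in tau heads, against 275, 243 and 263 TPM in control heads. All tau libraries lay below all control libraries. *eIF4A*-RF had a log2 fold change of -0.31 ± 0.12 (SE, limma, unadjusted p = 0.024 and adjusted p = 0.478).

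The share of *eIF4A*-RF was 10.7%, 11.3% and 10.7% in tau heads, against 13.1%, 11.9% and 12.7% in control heads, which again did not overlap (adjusted p = 0.478 in limma). *eIF4A*-RC, which is spliced in the same region and has a 3′ UTR of 271 nt, had 319, 324 and 302 TPM in tau heads, against 338, 378 and 367 TPM in control heads. The 4 other isoforms overlapped between genotypes. Among them is *eIF4A*-RD, which is spliced at the same sites as RC and had 449, 421 and 401 TPM in tau heads, against 475, 408 and 448 TPM in control heads, so the isoforms spliced in the 3′ UTR did not all separate. The most abundant, *eIF4A*-RA, retains the 3′ UTR intron and had 449, 510.3 and 596 TPM in tau heads, against 493, 567 and 502 TPM in control heads.

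*eIF4B* isoforms differ in the protein they encode. *eIF4B*-RA (chromosome 3L, minus strand) has 2 exons and a coding sequence of 1170 nt, while *eIF4B*-RB ends its second exon at 27856784, goes on with 3 further exons to 27842669 and has a coding sequence of 1377 nt. RB took 52.1%, 53.7% and 52.8% in tau heads, against 47.3%, 48.8% and 41.8% in control heads. The share was above all controls in all tau libraries, and the log2 ratio to the rest of the gene differed by 0.39 (interval from 0.08 to 0.71, limma, adjusted p = 0.613). The TPM of both isoforms overlapped between genotypes.

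The largest shifts in share came from genes with few reads. *eIF1A*-RA, which has a second exon starting at 18274867 of chromosome 3R where *eIF1A*-RB starts it at 18274826, took 68.3%, 68.5% and 78.5% in tau heads, against 24.0%, 50.0% and 43.8% in control heads. These rest on 10 to 20 reads a tau library and 8 to 17 reads a control library. In control replicates 2 and 3, RA and RB had equal values. The log2 ratio differed by 1.75 (interval from 0.58 to 2.92, limma, adjusted p = 0.503). *eIF2Bdelta*-RD took 41.4%, 36.5% and 41.4% in tau heads, against 25.0% in each control library, where all 4 isoforms of the gene were given the same value. This was the lowest adjusted p of any factor share (limma, 0.208), from 8 to 27 reads a tau library and 7 to 16 reads a control library. *eIF2Bdelta*-RD passed the limit of 5 TPM only through the tau libraries, where it was high. The other isoforms of the gene were under the limit and not tested. The rank and direction of this share therefore cannot be separated from the filter.

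The remaining shares named by rank overlapped between genotypes. *eIF2Bepsilon*-RB, which has a longer 3′ UTR than *eIF2Bepsilon*-RA, took 63.6%, 40% and 52% in tau heads, against 42.9%, 20% and 46.7% in control heads, with RA as its mirror (limma, adjusted p = 0.935). *eIF4EHP*-RA took 25%, 18.6% and 37.9% in tau heads, against 23.3%, 13.3% and 14.3% in control heads. *eIF4G2*-RA took 20%, 29.4% and 41.7% in tau heads, against 57.9%, 28.6% and 38.5% in control heads.

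*eEF1delta*-RA lacks the coding exon of 81 nt, at 10233481 to 10233561 of chromosome 2L, that *eEF1delta*-RB includes. RA had 18.6, 13.9 and 11.9 TPM in tau heads, against 10.9, 9.22 and 7.04 TPM in control heads, without overlap (log2 fold change 0.65, limma, adjusted p = 0.67). Its share of the gene, 17%, 16.3% and 8.18% in tau heads, against 17.1%, 8.34% and 10.3% in control heads, overlapped. *eIF3j* isoforms RA and RB, which differ in their 5′ start, were divided evenly in 5 of 6 libraries, so their TPM follows the gene sum.

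**Figure D5:**
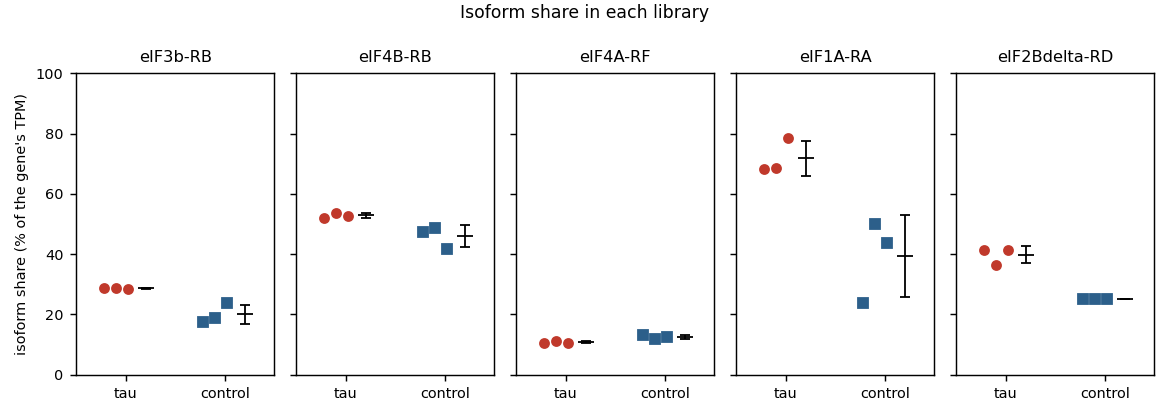
Share of the gene's TPM taken by an isoform in each tau library (red circles) and control library (blue squares), with the mean and SD of 3 libraries beside them. Tau and control libraries do not overlap for any of the 5 isoforms shown, which were chosen for this, and the eIF1A and eIF2Bdelta shares rest on at most 27 reads of the gene a library. The eIF2Bdelta isoform passed the limit of 5 TPM only through its tau libraries.

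Other genes of the translation pathway gave a similar picture. Of 30 genes for regulators, release factors and recycling factors, 30 were tested and 0 were called in either direction (1.08% of all genes). An unadjusted p under 0.05 was found for 2 (8.15% of all genes). The median log2 fold change was -0.11, against -0.04 for all genes. Genotypes did not overlap for 1 gene above and 3 below the controls, where 13.0% of all genes did not overlap. Both counts are near the background. *Gcn2*, a kinase that phosphorylates eIF2alpha when amino acids are short, had 14.6, 12.8 and 15.6 TPM in tau heads, against 7.69, 6.58 and 6.98 TPM in control heads, without overlap (log2 fold change 0.92, interval from 0.16 to 1.69, limma, adjusted p = 0.445). *Fmr1*, the fly gene for the fragile X protein, a repressor of translation in neurons, had 8.77, 23.3 and 12.7 TPM in tau heads, against 24.2, 27.6 and 34.9 TPM in control heads (log2 fold change -1.0, adjusted p = 0.362 in limma). The log2 fold change of *Fmr1* ranged from -1.36 to -0.70 when a library was left out, and was -0.70 without tau replicate 1. The control values of *Gcn2* and the tau replicate 1 value of *Fmr1* are not far above the level of 3 reads.

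*raptor*, a subunit of the TORC1 kinase complex, had 4.67, 22.7 and 13.3 TPM in tau heads, against 21.0, 18.8 and 20.3 TPM in control heads, and its log2 fold change of -0.76 was -0.19 without tau replicate 1. Its value in tau replicate 1 is close to the level of 3 reads there, 4.38 TPM. The remaining genes named by rank were *HBS1*, a ribosome rescue factor (log2 fold change -0.43, or -0.15 without tau replicate 1), *pAbp*, which encodes the polyA-binding protein (0.25, or 0.13 without control replicate 1 and 0.38 without control replicate 3), and *PPP1R15*, which directs the phosphatase that reverses eIF2alpha phosphorylation (0.24). The termination factor *eRF3* and *nero*, which is needed for the hypusine of eEF5, were also lower in all tau libraries than in all controls, at -0.38 and -0.30 on the log2 scale. None of them passed the test.

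Cell type markers were summed to see whether the make-up of the heads differed beside these values. No marker gene passed the test. The 9 photoreceptor markers summed to 42012, 43136 and 49994 TPM in tau heads, against 37799, 42089 and 37588 TPM in control heads, the 7 muscle markers to 931, 1459 and 1337 TPM in tau heads, against 1100.3, 924 and 785 TPM in control heads, and the 7 fat body markers to 32692, 38203 and 28523 TPM in tau heads, against 36040.4, 44095 and 37247 TPM in control heads. The 8 glia markers summed to between 1109 and 1535 TPM in tau heads and between 1147 and 1428 TPM in control heads. Most of the photoreceptor sum came from *ninaE*, the main rhodopsin gene, which had 27891, 28204 and 33183 TPM in tau heads, against 22549, 25227 and 22986 TPM in control heads (log2 fold change 0.33, limma, adjusted p = 0.071). The other 8 photoreceptor markers overlapped between genotypes, *Arr1*, *Arr2*, *norpA*, *trp* and *trpl* had log2 fold changes below 0, and the median of the 9 was -0.03. Most of the fat body sum came from *Yp1*, *Yp2* and *Yp3*. *Yp3* was lower in all tau libraries than in all controls (log2 fold change -0.46, limma, adjusted p = 0.088), and the other fat body markers overlapped. Of these, *Lsp2* and *Lpin* had log2 fold changes above 0 (1.72 and 0.11). The 9 neuron markers summed to between 485 and 773 TPM in tau heads and between 564 and 751 TPM in control heads, and *elav* itself was under the level of 3 reads in all 6 libraries. The muscle marker *TpnC4* was at 0 in all libraries. The 6 tested muscle markers had log2 fold changes from 0.18 to 0.48 (median 0.39), all with overlapping genotypes. Of these 6, 2 had an unadjusted p under 0.05 in limma (8.15% of all genes). In whole heads, fewer cells of a type and less RNA per cell cannot be told apart, and the part of cell make-up in the factor values was not tested.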

How the data were processed

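Drosophila heads (tau transgenic and control, 3 libraries each) were sequenced as native polyA RNA on nanopores. The authors called bases with Guppy, kept reads of quality 9 or more, aligned them to the FlyBase transcriptome (Release 6 assembly) with minimap2, allowing 10 secondary alignments, and deposited TPM that NanoCount estimated for each isoform, with no division by transcript length. The authors' deposited table also holds their DESeq2 results (mean normalized signal, log2 fold change, standard error, Wald score, p and adjusted p), which were not used. The 6 short-read control samples were not analysed here.

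Isoform TPM was summed over the isoforms of a gene, and isoform share was log2(isoform TPM + 1) minus log2(TPM of the rest of the gene + 1). Each was fitted over the whole table with limma (v3.58.1, R v4.3.3; lmFit, eBayes with trend) on log2(TPM + 1), mean of at least 5 TPM, all 6 libraries, no covariate, two-sided, with Benjamini-Hochberg adjustment, and an adjusted p of 0.05 or less called. Fold changes on this scale understate those of low genes. Single values were compared by a two-sided exact permutation test (smallest p 0.1). Reads per library were inferred by taking the most frequent TPM above 0 in a library as the value of a single read. Only 40.5% to 42.7% of values were whole multiples of that value (tolerance 0.001), so no count test was run. The fits were tested on simulated data in which 200 features were changed. At a log2 change of 1, 136 of 200 genes, 143 of 200 isoforms and 31 of 200 shares were recovered, with 6, 3 and 18 calls of other features. At a log2 change of 2, 200 genes, 200 isoforms and 186 shares were recovered, with 39, 15 and 231 calls of other features. The share fit thus missed most changes of 1 on the log2 scale.

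Isoform structures are from the Ensembl release 115 annotation of the same assembly, which held all 118 factor isoforms. Sequences were not used here. Tables and plots were made in Python v3.11.15 with numpy v2.4.6, matplotlib v3.10.9, scipy v1.17.1 and pandas v2.3.3.

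Named were factors past the threshold in any fit, the 12 highest gene levels, the 6 genes and 5 shares with the largest difference in each direction, *eEF1alpha1*, and the other translation genes past the threshold or with the 3 largest differences each way. Factors whose genotypes did not overlap or with an unadjusted p under 0.05 were added after their values were seen, as were the isoform structures described and the remaining members. The members and gene lists were chosen with earlier results of these data known.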

Additional observations from a re-analysis of the deposited data

How the results depend on the processing

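Under every alternative run (pseudocounts of 0.5 and 5 TPM, no filter, a filter at 20 TPM, median-of-ratios scaling, limma without trend, library weights, the replicate block and each of 6 libraries left out), 0 factor genes, 0 factor isoforms and 0 factor shares were called. Merging isoforms with equal values, an alternative chosen after seeing the data, also gave 0. Over all features the number called depended on the processing. Of isoforms, 97 were called, 0 without a filter, 5 without trend and 25 to 100 with a library left out (40 without tau replicate 1). Of genes, 97 were called, 42 without a filter, 4 without trend and 29 to 105 with a library left out (29 without control replicate 3). Of shares, 0 were called, 9 with the filter at 20 TPM, 3 with equal isoforms merged and 0 to 7 with a library left out. The causes were not tested. Replicate numbers did not pair the libraries (correlations of deviations from -0.07 to 0.07 for same-numbered genes), and with the replicate block 100 isoforms, 77 genes and 0 shares were called, 0 of them factors.

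Of 812 values of named genes and isoforms under alternatives, 797 kept their direction. Runs in which a gene or isoform fell under the filter gave no value and are not counted, such as *eIF4H2* without control replicate 1. With median-of-ratios scaling, the log2 fold change was 0.022 for *eEF5*, 0.0059 for *eIF3m* and 0.018 for *eIF3i*, each slightly negative in the deposited TPM. With a library left out, *eEF5* ranged from -0.083 to 0.067, *eEF1gamma* from -0.012 to 0.11, *eIF3m* from -0.071 to 0.026, *eIF3i* from -0.073 to 0.031, *eIF4E5* from -0.30 to 0.61, *eIF2Bepsilon*-RA from -0.73 to 0.0078 and *eIF4B*-RA from -0.16 to 0.0068. Genes and isoforms with few reads have wide intervals, and reads divided between isoforms limit the shares.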
